A study of Mus musculus with 6 samples.

Results

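Runx2 windows whose nearest gene carries a symbol of a transcription factor family were followed through lists of Runx2 occupancy in mouse chondrocytes with and without interleukin-1β (IL-1β). A gene was taken when its symbol in either list began with 1 of 34 prefixes, such as Zfp, Fox, Creb or Nfi, and its windows were joined by any window of the other list that overlapped them. This gave 47 of the 1000 windows of the IL-1β list and 41 of the 1000 windows of the normal-culture list. They lay at 66 separate sites and named 57 genes, out of 1331 genes named in the lists together. The IL-1β list named 40 of these genes and the normal-culture list named 39, with 22 genes in both, 18 in the IL-1β list alone and 17 in the normal-culture list alone. The share in both, 38.6% (Wilson 95% interval 27.1 to 51.6%), was near that over all 1331 genes, of which 474 were in both lists (35.6%), 419 in the IL-1β list alone and 438 in the normal-culture list alone.

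The study used primary chondrocytes of 5-day-old C57BL/6 mice (C57BL/6J in the methods) that carry a knock-in FLAG tag on Runx2, through which the protein and its DNA were pulled down with an anti-FLAG antibody. Cells were exposed to IL-1β, an inflammatory cytokine used to model cartilage degradation, or kept in normal culture, and both groups carry the tagged allele. The amount was 1 ng, per µL in the labels and per mL in the methods. Of 6 libraries, the anti-FLAG and input libraries of each condition lie behind the lists of 100 bp windows, and there was 1 library of each kind per condition. No value below therefore has a replicate error, no test between conditions was possible, and every difference is one between these lists. The lists give positions and an order but no scores or read counts, so the depth behind a window is unknown. The lists end at their first 1000 peaks, and a window absent from a list may lie below its end. The lists measure occupancy and not expression, and the cell type could not be checked against marker genes.

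Runx2 is the Runt-domain transcription factor that drives hypertrophic maturation of chondrocytes and the formation of bone. Transcription factors are grouped by the fold that touches DNA: C2H2 zinc fingers, forkhead, homeodomain, basic leucine zipper (bZIP), basic helix-loop-helix (bHLH), ETS and nuclear factor I (NFI) among others. A gene for such a factor near an occupied site is a possible target through which Runx2 could reach further genes, but proximity alone does not show regulation. In cartilage and bone, AP-1 factors of the Fos group act with Runx2 at collagenase genes, Atf4 works with Runx2 in osteoblasts, and the Foxp factors regulate endochondral ossification.

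The sequences of 12 windows are shown because the sites they mark recur in the results: 9 were found in both lists and hold the Runx motif, and the other 3 lack it or were found in 1 list. Each is the plus strand of mm9, 5′ to 3′, over the 100 bases that follow the listed start, and whether listed positions count from 0 or from 1 is not stated. Capitals mark each match to the Runx motif, TGTGGT or TGCGGT, read on either strand.
Zfp28, IL-1β window, in both lists, chr7:6362923-6363023: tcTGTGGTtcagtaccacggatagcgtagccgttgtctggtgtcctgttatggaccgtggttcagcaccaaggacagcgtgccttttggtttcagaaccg
Sfpi1, IL-1β window, in both lists, chr2:90955351-90955451: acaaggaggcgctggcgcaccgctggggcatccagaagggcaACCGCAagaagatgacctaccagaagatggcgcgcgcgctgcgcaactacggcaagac
Pou2f2, IL-1β window, in both lists, chr7:25918261-25918361: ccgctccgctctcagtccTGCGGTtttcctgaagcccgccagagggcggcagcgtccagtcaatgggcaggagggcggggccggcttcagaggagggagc
Meis1, IL-1β window, in both lists, chr11:18920428-18920528: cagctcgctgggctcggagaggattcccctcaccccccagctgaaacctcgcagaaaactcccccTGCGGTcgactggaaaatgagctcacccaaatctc
Foxk1, IL-1β window, in both lists, chr5:142916814-142916914: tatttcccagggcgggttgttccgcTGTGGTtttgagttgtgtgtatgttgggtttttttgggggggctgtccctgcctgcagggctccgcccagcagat
Foxo3a, normal-culture window, in both lists, chr10:41809278-41809378: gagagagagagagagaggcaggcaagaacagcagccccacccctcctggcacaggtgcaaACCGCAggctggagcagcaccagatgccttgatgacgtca
Crebl1, IL-1β window, in both lists, chr17:34818135-34818235: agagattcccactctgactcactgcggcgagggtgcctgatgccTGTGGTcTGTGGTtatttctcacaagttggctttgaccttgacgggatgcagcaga
Fos, IL-1β window, in both lists, chr12:86796490-86796590: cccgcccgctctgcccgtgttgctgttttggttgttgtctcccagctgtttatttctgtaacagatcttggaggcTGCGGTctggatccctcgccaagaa
Foxred2, IL-1β window, in both lists, chr15:77776249-77776349: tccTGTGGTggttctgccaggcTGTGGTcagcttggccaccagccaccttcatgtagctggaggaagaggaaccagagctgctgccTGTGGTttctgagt
Zbtb38, IL-1β window, in both lists, no match, chr9:96602508-96602608: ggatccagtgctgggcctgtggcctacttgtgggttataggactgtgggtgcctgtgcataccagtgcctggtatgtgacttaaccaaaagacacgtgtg
Nfib, window of the IL-1β list alone, chr4:82011138-82011238: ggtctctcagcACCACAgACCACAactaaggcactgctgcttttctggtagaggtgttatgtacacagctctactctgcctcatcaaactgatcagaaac
Pbx3, window of the IL-1β list alone, no match, chr2:33946232-33946332: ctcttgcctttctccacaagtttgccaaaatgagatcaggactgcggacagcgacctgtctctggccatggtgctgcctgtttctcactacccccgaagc
The Crebl1 and Foxred2 windows hold 2 and 3 matches, and the Nfib window holds 2 matches 1 base apart. The Zbtb38 window, ranked near the front of both lists, holds none.

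Over all family windows the Runx motif was found in 24 of 47 windows of the IL-1β list, or 51.1% (Wilson 95% interval 37.2 to 64.7%), and in 25 of 41 windows of the normal-culture list, or 61.0% (45.7 to 74.3%). The same motif was found in 59.4% of all windows of the IL-1β list and in 63.3% of all windows of the normal-culture list. These intervals, like all given here, cover counting error only. In windows of the same width placed 1000 bp to each side, the motif was found in 11.7% of 94 flanks of the IL-1β family windows and in 7.32% of 82 flanks of the normal-culture ones. At 37 of the 66 sites at least 1 window held the motif. Of the 30 matches in the IL-1β family windows, 19 lay within 25 bp of the window centre (63.3%), and of the 31 matches in the normal-culture family windows 17 did so (54.8%), against 61.2% and 63.9% of the matches in all windows of the same lists.

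The spellings of the motif were also counted apart. TGTGGT was found in 34.0% of the IL-1β family windows (22.2 to 48.3%), against 45.1% of all windows of that list, a value inside the interval. In the normal-culture family windows it was found in 31.7% (19.6 to 47%), against 47.9% of all windows of that list, just above the interval. TGCGGT, the spelling with a CpG, was found in 17.0% of the IL-1β family windows (8.89 to 30.1%), against 17.2% of all, and in 31.7% of the normal-culture family windows (19.6 to 47%), against 19.5% of all, just below the interval. The Pou2f2, Meis1 and Fos windows printed above hold TGCGGT, and the Sfpi1 and Foxo3a windows hold it on the minus strand.

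**Figure D1:**
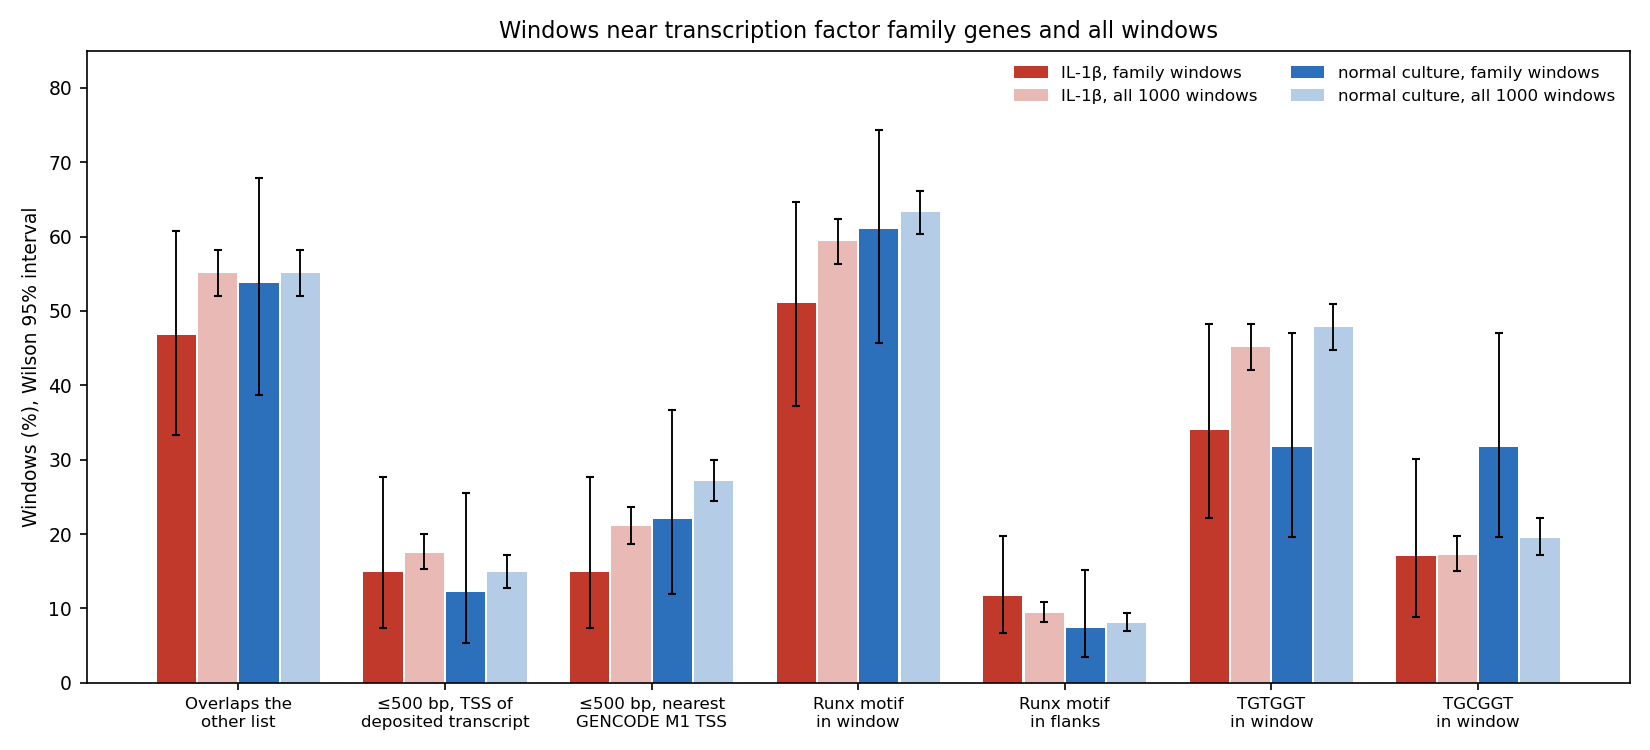
Share of windows (%, vertical axis) with each property named on the horizontal axis, for family windows (dark) and all 1000 windows (light) of the IL-1β list (red) and the normal-culture list (blue); lines are Wilson 95% intervals. The Runx motif is in 51.1% and 61.0% of family windows and in 11.7% and 7.32% of their flanks, and TGTGGT is in 34.0% and 31.7% of family windows, against 45.1% and 47.9% of all windows.

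Of the family windows, 22 sites were in both lists, which is 46.8% of the IL-1β family windows (33.3 to 60.8%) and 53.7% of the normal-culture family windows (38.7 to 67.9%), where windows that overlap by at least 1 bp count as the same site. Over all windows the share was 55.1% of each list, inside both intervals. Windows that joined the family only by overlap are shared by that rule. Among the 45 IL-1β windows with a family gene of their own the share was 44.4%. In the normal-culture list it stayed at 53.7%. Among the 22 sites, 11 ranked nearer the front in the IL-1β list and 11 in the normal-culture list, with rank 1 the first window of a list. The median absolute difference in rank was 173.5, against 141 over all 551 shared windows. At 11 sites, or 50%, the ranks differed by more than 200, against 38.7% of all shared windows.

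The median rank of the family windows was 598 in the IL-1β list (lowest 14, highest 1000) and 631 in the normal-culture list (19 to 898), against 500.5 over a whole list. The first 500 ranks held 18 of 47 IL-1β family windows (38.3%, 25.8 to 52.6%) and 16 of 41 normal-culture ones (39.0%, 25.7 to 54.3%), against 50% of all windows, which lies inside both intervals. The first 100 ranks held 4 in the IL-1β list (8.51%), at Zfp28, Sfpi1, Zfp623 and Zbtb38, and 5 in the normal-culture list (12.2%), at Zfp28, Sfpi1, Zfp608, Zbtb38 and Zfp281, against 10% of all windows. Windows found in both lists had a median rank of 468 in the IL-1β list and 460 in the normal-culture list, against 336 and 340 for all shared windows.

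**Figure D2:**
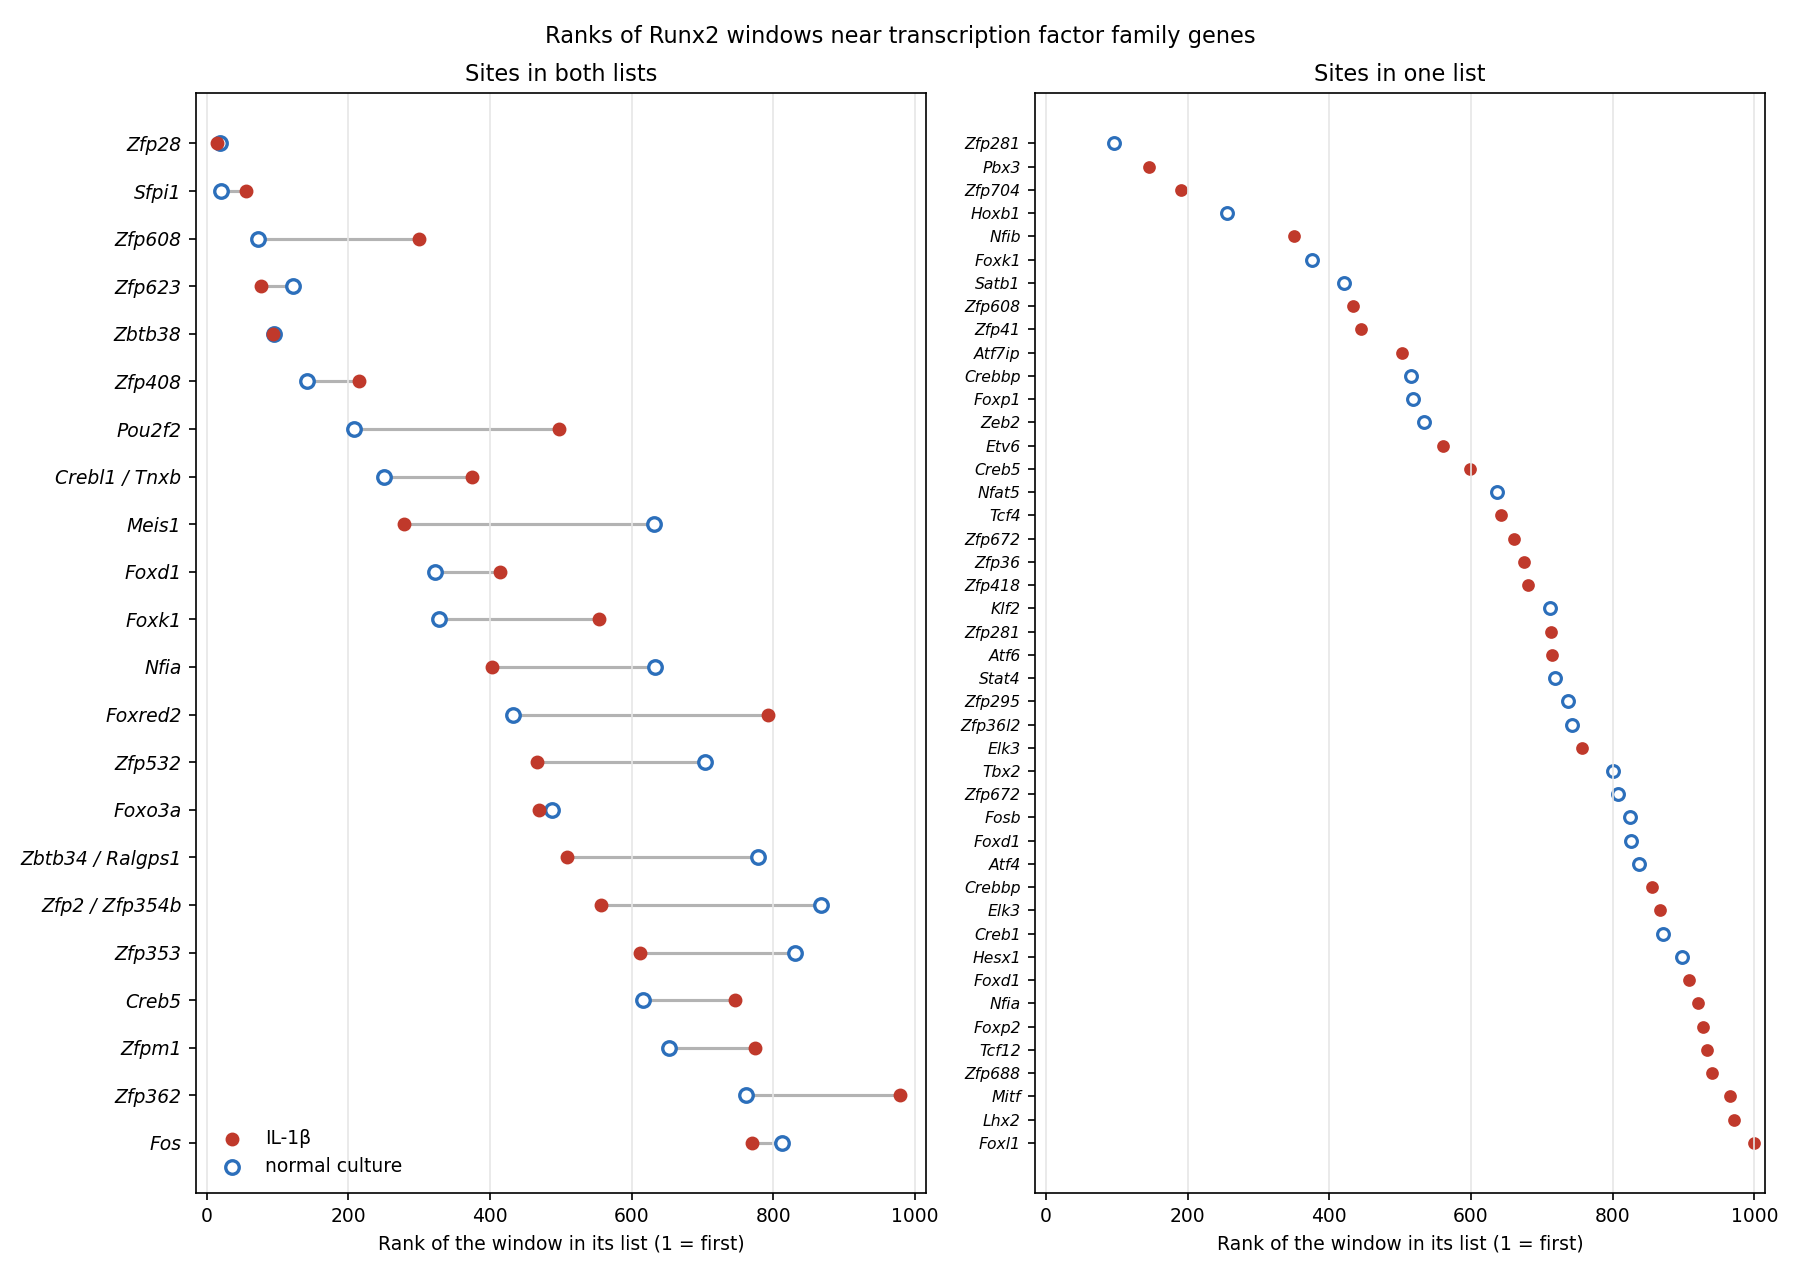
Rank in its list (horizontal axis, 1 is the first window) of every family site, with IL-1β as filled red points and normal culture as open blue points; the left panel has the 22 sites in both lists, joined by a line, and the right panel the 44 windows in 1 list. Zfp28, Zbtb38 and Foxo3a have nearly equal ranks, while Foxred2, Meis1 and Zfp2 / Zfp354b are spread over more than 300 ranks.

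C2H2 zinc fingers made the largest group, with 19 genes, 9 of them in both lists, 5 in the IL-1β list alone and 5 in the normal-culture list alone. They had 16 windows in the IL-1β list and 14 in the normal-culture list, of which 7 and 6 held the Runx motif. The window nearest the front was at Zfp28, a gene of the KRAB zinc finger class, on chromosome 7 (chr7:6362923-6363023). It ranked 14 in the IL-1β list and 19 in the normal-culture list. By its position it lay in intron 2 of Gm16532 in the GENCODE M1 annotation, 26.9 kb downstream of the Zfp28 start site, and the motif match lay at the edge of the IL-1β window and outside the normal-culture one, which starts 6 bp further on. Zbtb38, which encodes a zinc finger protein that binds methylated CpG, ranked 93 in the IL-1β list and 95 in the normal-culture list. Its window (chr9:96602508-96602608) was in intron 5, 29.5 kb downstream of the start site.

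Zfp623 had its window at its own start site. It ranked 76 in the IL-1β list and 122 in the normal-culture list, with window centres 0.065 and 0.009 kb downstream of the start, in an annotated untranslated region (UTR). The window moved by 56 bp between the lists, so that only the normal-culture one (chr15:75771340-75771440) held the Runx motif. Zfp608 had 2 windows in the IL-1β list and 1 in the normal-culture list, all on chromosome 18 and intergenic. The site in both lists, 354 kb upstream of the start and thus the farthest of all family windows, ranked 300 in the IL-1β list and 73 in the normal-culture list. The other, at rank 434 in the IL-1β list alone, was 104 kb downstream of the start and held both the Runx motif and the AP-1 motif, TGACTCA or TGAGTCA.

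Zfp281, a regulator of pluripotency genes, showed how a site can fall apart between the lists. It had a window at rank 713 in the IL-1β list (chr1:138579936-138580036) and at rank 96 in the normal-culture list (chr1:138579780-138579880), 156 bp apart and without overlap, so that the site counted as unshared in both. Foxd1 and Zfp672 did the same, with windows 154 and 129 bp apart. Counting windows with centres within 200 bp as the same site raised the shared share to 53.2% in the IL-1β list and 61.0% in the normal-culture list. Of the zinc finger windows in the IL-1β list alone, Zfp704 stood nearest the front, at rank 190, in intron 4 and 148 kb downstream of the start (chr3:9461728-9461828), with no Runx motif. Zfp41 followed at rank 444 after the Zfp608 window, 0.026 kb upstream of its start (chr15:75447038-75447138).

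The remaining zinc finger genes ranked as follows. In both lists, Zfp408 ranked 215 in the IL-1β list and 141 in the normal-culture list, Zfp532 ranked 467 and 703 in the same order, Zfp672 ranked 661 and 807, and Zfp362 ranked 979 and 762. The Zfp362 window was the only family window with the same start in both lists (chr4:128488788-128488888), and it held the Runx and AP-1 motifs together. In the IL-1β list alone were Zfp2 at rank 557, Zfp418 at 680 and Zfp688 at 940. In the normal-culture list alone were Zeb2, a Smad-binding repressor, at rank 533, Klf2 at 712, Zfp295 at 737, Zbtb34 at 779 and Zfp354b at 867.

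Some of these names differ between lists at one and the same site. The Zfp2 window of the IL-1β list, 0.051 kb upstream of the Zfp2 start, overlapped the Zfp354b window of the normal-culture list by 95 bp. The Zbtb34 window of the normal-culture list overlapped by 96 bp a window that the IL-1β list gave to Ralgps1, at rank 509, and both lay in intron 3 of Ralgps1. The Crebl1 window of the normal-culture list overlapped by 95 bp a window that the IL-1β list gave to Tnxb. By nearest GENCODE M1 gene, the deposited gene was the same for 38 of 45 family windows in the IL-1β list (84.4%) and for 26 of 41 in the normal-culture list (63.4%). The same share over all windows is not given here, so whether the lower value is particular to the family windows cannot be told. A gene found in 1 list only can therefore reflect a difference in the deposited names as well as a difference in the windows.

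Forkhead genes numbered 6, of which 3 were in both lists, with 6 windows in each list. Foxd1, a factor of the renal stroma, had 2 windows in each list. The site in both lists (chr13:99262670-99262770 in the IL-1β list) was 139 kb downstream of the start and ranked 414 in the IL-1β list and 323 in the normal-culture list, with no Runx motif. The other pair of windows, 37.0 and 37.1 kb downstream, ranked 908 in the IL-1β list and 826 in the normal-culture list and did not overlap. Foxk1, a regulator of metabolism and autophagy genes, ranked 554 in the IL-1β list and 328 in the normal-culture list at a site in intron 2 with the Runx motif (chr5:142916814-142916914). In the normal-culture list it had a second window, at rank 375, 33.9 kb upstream of the start (chr5:142843520-142843620), also with the motif.

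Foxo3a, a stress and longevity factor now called Foxo3, ranked 469 in the IL-1β list and 488 in the normal-culture list at a site 187 kb downstream of its start, for which GENCODE M1 has Armc2 as the nearest gene. The IL-1β window began 72 bp before the normal-culture one (chr10:41809278-41809378). Its 32 bp words had a median of 71 exact copies in the genome, whereas those of the normal-culture window had a median of 1. Of the Foxp factors, Foxp1 ranked 518 in the normal-culture list alone, in intron 9 and 190 kb downstream of the start (chr6:98922533-98922633), without the Runx motif. Foxp2 ranked 928 in the IL-1β list alone, in intron 4, with the motif. Foxl1, a factor of gut mesenchyme, was the last window of the IL-1β list at rank 1000, with the Runx and AP-1 motifs. None of the 6 forkhead windows in either list held the forkhead motif TGTTTAC. The motif was in 1.70% of all IL-1β windows and 1.6% of all normal-culture windows. The forkhead windows are thus too few for its absence to be read.

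The bZIP genes numbered 7, of which 2 were in both lists, 1 in the IL-1β list alone and 4 in the normal-culture list alone. Creb5, which in articular cartilage is needed for expression of the lubricant gene Prg4, had 2 windows in the IL-1β list and 1 in the normal-culture list. The site in both lists, 23.7 kb upstream of the start (chr6:53499652-53499752 in the IL-1β list), ranked 746 in the IL-1β list and 616 in the normal-culture list, overlapped by 6 bp and held no Runx motif. The other window, at rank 598 in the IL-1β list alone, was 204 kb upstream of the deposited start (chr6:53319297-53319397) and held 2 Runx motifs. By GENCODE M1 it lay in intron 1 of 9430076C15Rik, a name counted here as a synonym of Creb5, 82.1 kb downstream of that start. Fos, the AP-1 subunit, ranked 770 in the IL-1β list and 812 in the normal-culture list at an intergenic site 18.3 kb upstream of its start (chr12:86796490-86796590), with the Runx motif in both windows. Its relative Fosb ranked 825 in the normal-culture list alone, 10.1 kb upstream, with the Runx motif.

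The other bZIP genes were named in 1 list each. Atf6, a membrane-bound sensor of unfolded protein, ranked 715 in the IL-1β list alone, 0.035 kb upstream of its start (chr1:172797886-172797986), with the Runx motif. Atf4, the effector of the integrated stress response, ranked 837 in the normal-culture list alone, 0.203 kb downstream of the deposited start, with 2 Runx motifs. Crebl1, now called Atf6b, ranked 251 in the normal-culture list, and the overlapping IL-1β window ranked 374 under the name Tnxb. That site was 34.1 kb from the Crebl1 start and in intron 5 of Tnxb, an extracellular matrix gene, and it held 2 Runx motifs and an AP-1 motif in both lists. Creb1, which responds to cyclic AMP, ranked 871 in the normal-culture list alone, 27.5 kb upstream, with the Runx motif.

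Homeodomain genes numbered 7, of which 2 were in both lists. Pou2f2, the B-cell factor Oct2, ranked 498 in the IL-1β list and 208 in the normal-culture list, 0.833 and 0.815 kb upstream of its start (chr7:25918261-25918361 in the IL-1β list). Meis1, a cofactor of Hox proteins, ranked 278 in the IL-1β list and 631 in the normal-culture list, 1.80 and 1.84 kb upstream of its start (chr11:18920428-18920528 in the IL-1β list). Both sites held the Runx motif in both lists, and their ranks moved in opposite directions. Pbx3, another Hox cofactor, had the best rank of any family window in the IL-1β list alone, 146, at an intergenic place 281 kb downstream of the deposited start (chr2:33946232-33946332). Hoxb1, a hindbrain patterning gene, ranked 256 in the normal-culture list alone, 48.0 kb downstream (chr11:96274998-96275098), with the Runx motif. Satb1, a chromatin organiser of thymocytes, ranked 421 in the normal-culture list alone, 147 kb upstream (chr17:52118530-52118630), with the Runx motif. The 32 bp words of that window had a median of 2 copies in the genome. Lhx2 ranked 971 in the IL-1β list alone, and Hesx1 ranked 898 in the normal-culture list alone at a UTR of Appl1.

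ETS genes numbered 3. Sfpi1, which encodes PU.1, a factor of myeloid and B cells, ranked 56 in the IL-1β list and 20 in the normal-culture list. Its window (chr2:90955351-90955451 in the IL-1β list) was the only family site in coding sequence, 18.4 kb downstream of the start, and held TGCGGT on the minus strand in both lists. Etv6, a haematopoietic factor, ranked 561 in the IL-1β list alone, in intron 1 with the Runx motif (chr6:133998196-133998296). Elk3, a ternary complex factor, had 2 windows in the IL-1β list alone, at ranks 757 and 867, at 55.7 kb downstream and 50.8 kb upstream of its start (chr10:92718180-92718280 and chr10:92824606-92824706), neither with the Runx motif.

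NFI genes numbered 2. Nfia had a site in both lists, in intron 4 and 226 kb downstream of the deposited start (chr4:97670956-97671056 in the IL-1β list), which ranked 403 in the IL-1β list and 633 in the normal-culture list without the Runx motif. Its second window was in intron 2 at rank 920 of the IL-1β list, with the motif (chr4:97535050-97535150). Nfib ranked 350 in the IL-1β list alone, in intron 3 and 140 kb downstream of the start (chr4:82011138-82011238), and the nearest window of the normal-culture list was not within 1000 kb. An NFI motif was in 0 of 3 IL-1β windows and 0 of 1 normal-culture windows at these genes. It was in 9.10% and 8.60% of all windows, so these windows are too few for its absence to be read.

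The bHLH genes among the members, Tcf4 at rank 643, Tcf12 at 933 and Mitf at 966, were in the IL-1β list alone. Of all 1331 named genes, 419 were in that list alone. Bhlhe40, of the same family but listed as Bhlhb2 and so not a member, ranked 602 in the IL-1β list and 838 in the normal-culture list. Tcf4 and Tcf12 encode E proteins, the common partners of tissue-specific bHLH factors, and Mitf acts in melanocytes and osteoclasts. Tcf4 had its window in intron 5 on chromosome 18, with the Runx motif. The windows of Tcf12, 21.6 kb upstream (chr9:71980955-71981055), and Mitf, 92.1 kb upstream (chr6:97664920-97665020), were intergenic and lacked it. The E-box, CANNTG, to which bHLH factors bind, was in 2 of these 3 windows, those of Tcf4 and Mitf, and in 36% of all IL-1β windows.

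The remaining families had 1 gene each, all in the normal-culture list alone. Nfat5, the osmotic stress factor of the Rel-like group, ranked 636 with its window 0.088 kb upstream of its start (chr8:109817231-109817331). Stat4, which acts in lymphocyte cytokine signalling, ranked 719 (chr1:52170750-52170850), at a place 106 kb from its own start. Tbx2, a limb and heart patterning factor, ranked 800, 9.57 kb downstream of its start (chr11:85655634-85655734), with the Runx motif. No gene with the prefixes Tead, Mef2, Irf, Jun, Prrx, Msx, Hey or Bhlhe was named in either list under its deposited symbol.

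The prefixes also take 7 genes that are not counted as DNA-binding factors here. Foxred2, an oxidoreductase of the endoplasmic reticulum, had the widest rank gap of all family sites, 793 in the IL-1β list and 432 in the normal-culture list, at a site in intron 7 with 3 Runx motifs in both windows (chr15:77776249-77776349 in the IL-1β list). Crebbp, the acetyltransferase CBP, ranked 856 in the IL-1β list in its own intron 11 (chr16:4120348-4120448) and 515 in the normal-culture list at the Trap1 start site (chr16:4077837-4077937). Atf7ip, a partner of the histone methyltransferase Setdb1, ranked 503 in the IL-1β list alone, 47.9 kb upstream (chr6:136419438-136419538). Zfp353 ranked 612 in the IL-1β list and 831 in the normal-culture list, 60.1 kb upstream (chr8:43229802-43229902 in the IL-1β list), with the Runx motif in both. Zfpm1, the GATA cofactor Fog1, ranked 774 in the IL-1β list and 653 in the normal-culture list. Zfp36 and Zfp36l2 encode RNA-binding proteins that speed the decay of cytokine mRNAs. Zfp36 ranked 675 in the IL-1β list alone and Zfp36l2 ranked 742 in the normal-culture list alone.

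**Figure D3:**
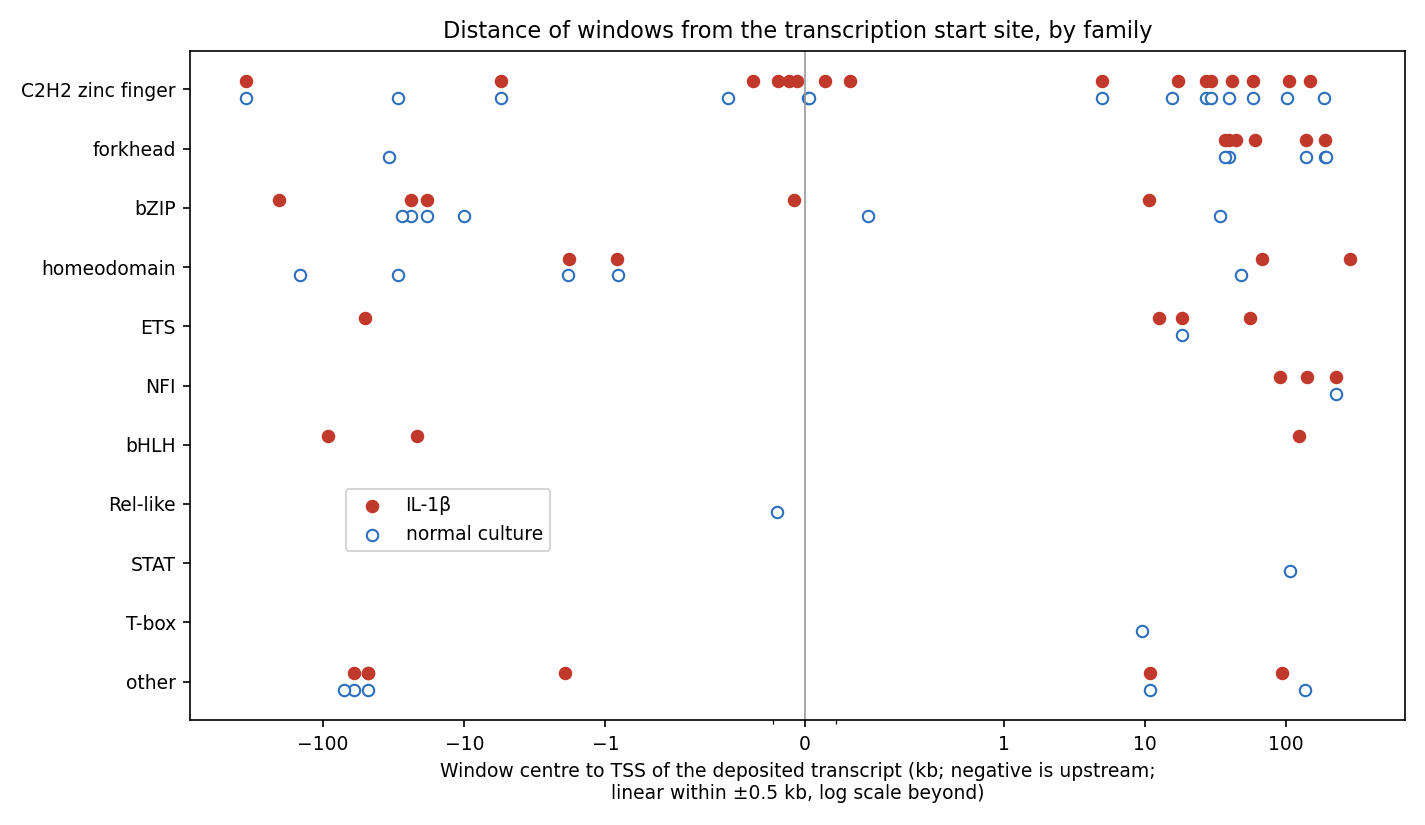
Distance of each family window from the start site of its deposited transcript (horizontal axis, kb, negative upstream, linear within 0.5 kb and logarithmic beyond), by family, with IL-1β as filled red points and normal culture as open blue points. Windows within 0.5 kb of a start are mostly at zinc finger genes, and all forkhead and NFI windows lie more than 30 kb away.

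Most family windows were far from a start site. Within 500 bp of the start of the deposited transcript lay 7 of 47 windows of the IL-1β list, or 14.9% (7.41 to 27.7%), and 5 of 41 windows of the normal-culture list, or 12.2% (5.32 to 25.5%). Over all windows the shares were 17.5% in the IL-1β list and 14.9% in the normal-culture list, inside these intervals. By the nearest GENCODE M1 start the family windows within 500 bp were 14.9% in the IL-1β list and 22% in the normal-culture list (12 to 36.7%), against 21.1% and 27.2% of all windows. The nearest GENCODE M1 start belonged to the named gene at 6 of 7 such windows in the IL-1β list. These were at Zfp623, Zfp41, Zfp2, Zfp672, Atf6 and Zfp688. In the normal-culture list it did so at 4 of 9, those of Zfp623, Nfat5, Zfp672 and Atf4. At the other 5 in the normal-culture list, named for Zfp408, Crebbp, Zeb2, Zfp295 and Zfp354b, the nearest start was that of Arhgap1, Trap1, Gtdc1, C2cd2 or Zfp2. The Zfp408 windows had Arhgap1 as the nearest GENCODE M1 start in both lists. They also lay close to the deposited Zfp408 start, 0.164 kb upstream in the IL-1β list and 0.244 kb upstream in the normal-culture list. Introns held 19 IL-1β family windows (40.4%) and 13 normal-culture ones (31.7%), against 36.6% and 32.5% of all windows.

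The family windows of the normal-culture list alone were richer in G + C than the other windows of that kind. The 19 such windows had a median G + C content of 69% (lowest 35%, highest 85%) and a median of 10 CpG dinucleotides per window, against 54% and 2 in all 449 windows found in that list alone. More than 60% G + C was found in 12 of the 19, or 63.2% (41 to 80.9%), against 31.8% of the 449 (27.7 to 36.3%). The 12 were at Foxk1, Crebbp, Zeb2, Nfat5, Stat4, Zfp295, Tbx2, Zfp672, Fosb, Foxd1, Atf4 and Hesx1. In the IL-1β list alone, 8 of 25 family windows exceeded 60% G + C (32%, 17.2 to 51.6%), against 25.8% of all 449 windows of that kind, and the family median was 55%. At the sites in both lists the medians were 54% in the IL-1β list and 54.5% in the normal-culture list, against 53% for all shared windows of each list. The G + C limit was chosen after the values were seen, and no test was made.

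**Figure D4:**
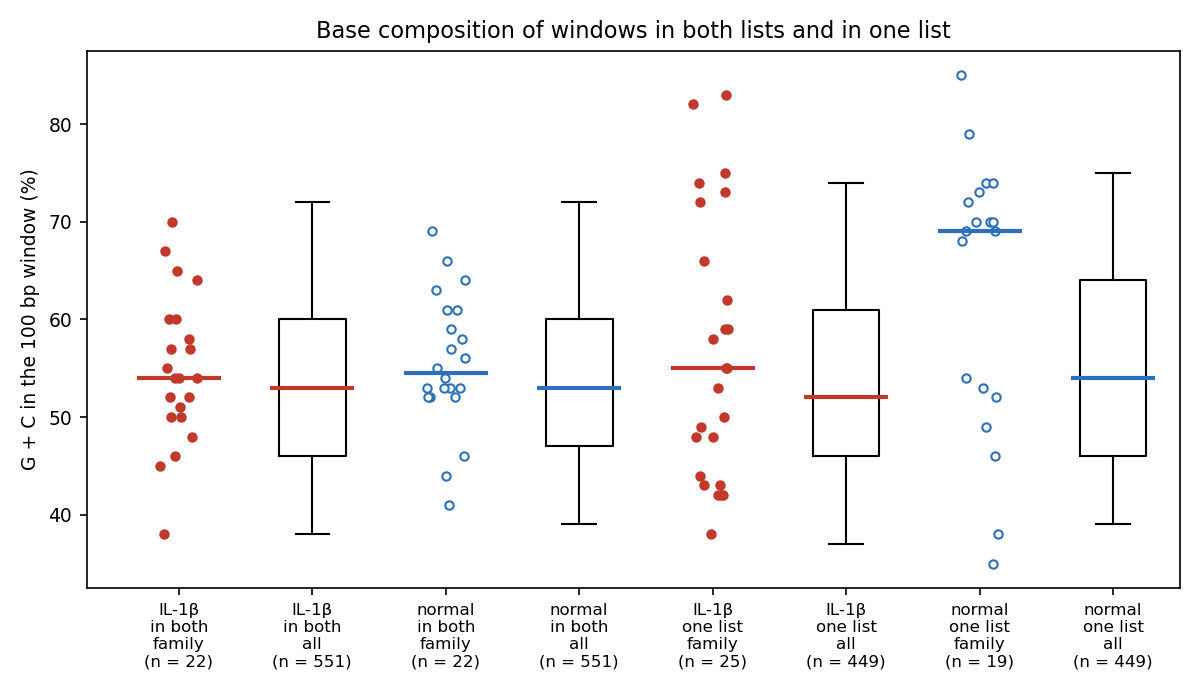
G + C content of each 100 bp window (%, vertical axis) for family windows (points) and all windows (boxes from the lower to the upper quartile, whiskers from the 5th to the 95th percentile), by list and by whether the window is in both lists or in one; coloured bars are medians. The 19 family windows of the normal-culture list alone have a median of 69%, against 54% for all 449 windows of that kind.

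Motifs of other factors were counted in the same windows. The GC box, GGGCGG, was in 9 of 47 IL-1β family windows, or 19.1% (10.4 to 32.5%), and in 8 of 41 normal-culture ones, or 19.5% (10.2 to 34.0%), against 10.6% and 13.0% of all windows. The ETS motif, CGGAAG, was in 0 of 47 IL-1β family windows, for which the interval reaches 7.56%, and in 6 of 41 normal-culture ones, or 14.6% (6.88 to 28.4%), against 7% and 9% of all windows. Those 6 were at Zfp623, Zfp408, Hoxb1, Meis1, Foxk1 and Nfat5, and the overlapping IL-1β windows at Zfp623, Zfp408 and Meis1 had been placed 42 to 80 bp away. The Sox motif, ACAATG or ACAAAG, was in 0 of 47 IL-1β family windows, for which the interval reaches 7.56%, against 8.20% of all windows. It was in 1 of 41 normal-culture ones, at Foxp1 (2.44%, 0.432 to 12.6%), against 7.10% of all, inside the interval. In flanks the Sox motif was more frequent, in 17.0% and 8.54% of those of family windows and in 12.2% and 12.4% of those of all windows, IL-1β list first. The AP-1 motif was in 4 of 47 IL-1β family windows, or 8.51% (3.36 to 19.9%), and in 2 of 41 normal-culture ones, or 4.88% (1.35 to 16.1%), against 6.10% and 6.30% of all windows. A word match in a window is no measure of binding by these factors.

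How often the families were named can be read against the 21900 protein-coding genes of the RefSeq table, of which the IL-1β list named 4.04% and the normal-culture list 4.11%. Under current symbols, 714 of these genes begin with 1 of the prefixes, of which the IL-1β list named 43 (6.02%, 4.50 to 8.01%) and the normal-culture list 41 (5.74%, 4.26 to 7.70%). The Zfp genes, 400 of the 714, were near the background, with 4.25% (2.67 to 6.70%) in the IL-1β list and 3% (1.72 to 5.17%) in the normal-culture list. Without them, the IL-1β list named 8.28% of 314 genes (5.71 to 11.9%) and the normal-culture list 9.24% (6.51 to 12.9%). Of the 28 genes with the prefixes Creb, Atf, Fos or Jun, the IL-1β list named 5 (17.9%, 7.88 to 35.6%) and the normal-culture list 7 (25%, 12.7 to 43.4%). Without Crebbp and Atf7ip, which are not DNA-binding factors, 3 were left in the IL-1β list and 6 in the normal-culture list. Of the 46 Fox genes, the IL-1β list named 6 (13.0%, 6.12 to 25.7%) and the normal-culture list 5 (10.9%, 4.73 to 23.0%), and without Foxred2 they were 5 and 4.

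A gene with more genome around it has more room for windows. The stretch nearest to a gene had a median of 53.1 kb for the prefixes other than Zfp, 66.1 kb for Fox, 60.4 kb for Creb, Atf, Fos and Jun, 38 kb for Zfp and 45.3 kb for all genes. Its part in these shares was not tested. A list of 40 other transcription factors outside the prefixes held factors of cartilage and bone (Sox, Runx, Gli, Dlx, Smad and others) and general ones such as Myc, Hif1a, Rela and Egr1. The IL-1β list named 9 of them (22.5%, 12.3 to 37.5%) and the normal-culture list 10 (25%, 14.2 to 40.2%), against 4.04% and 4.11% of all genes, and the choice of this list was made with earlier results known. The 7 in both were Gli2 (188 in the IL-1β list, 168 in the normal-culture list), Runx3 (220 and 111), Dlx6 (261 and 244), Runx1 (361 and 160), Myc (441 and 415), Sox9 (454 and 490) and Smad3 (973 and 517).

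**Figure D5:**
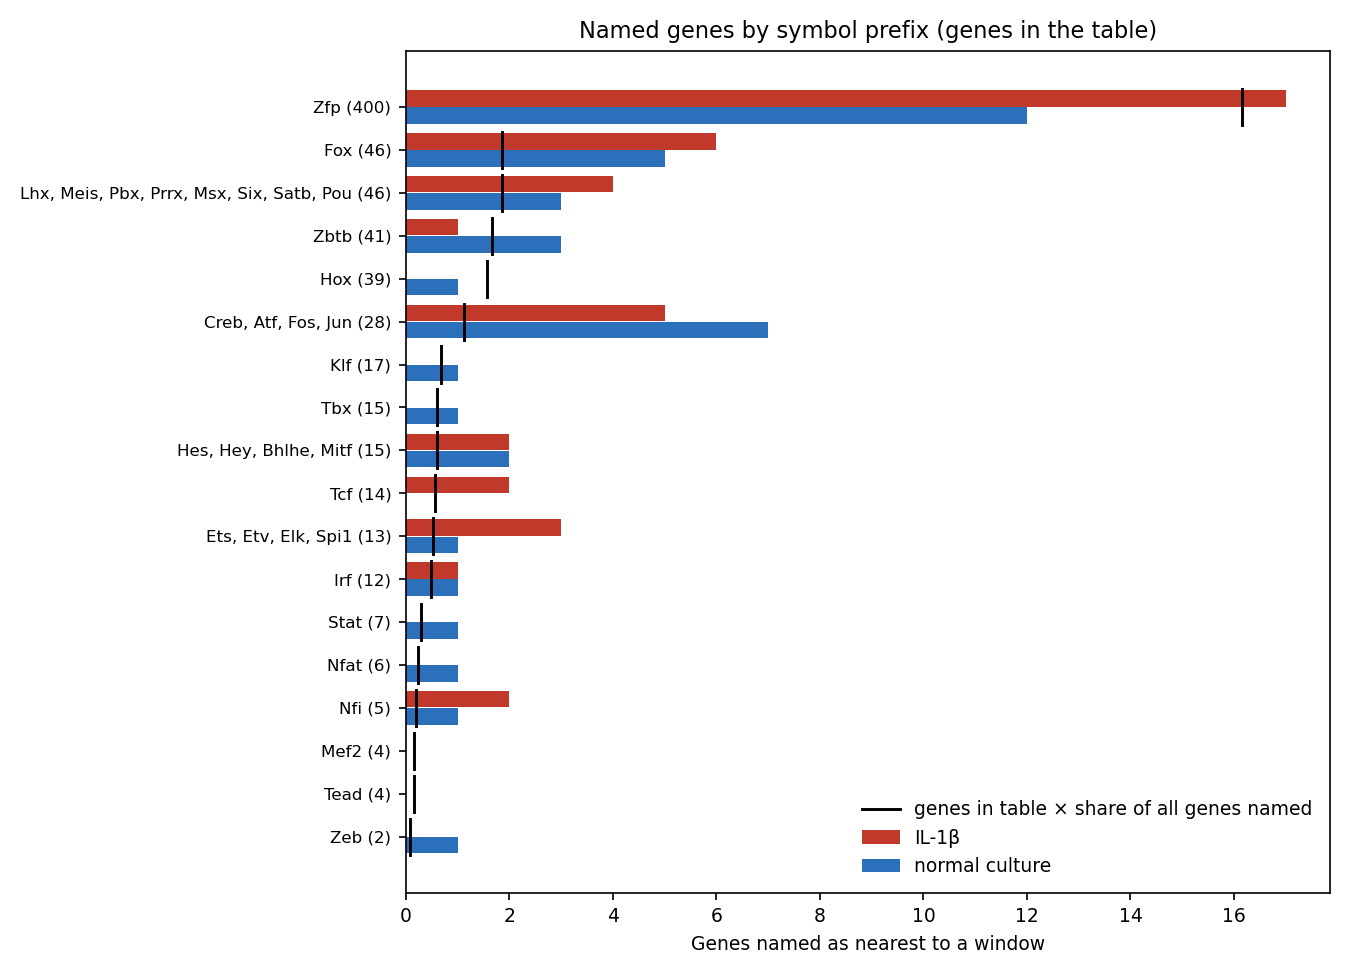
Number of genes named as nearest to a window (horizontal axis) by symbol prefix, with the number of protein-coding genes of that prefix in brackets, for the IL-1β list (red, upper bar) and the normal-culture list (blue, lower bar); the black mark is that number multiplied by the 4.04% of all genes named in the IL-1β list. Counts follow current symbols and include Crebbp, Atf7ip and Foxred2. Zfp stays near its mark, while Fox and the Creb, Atf, Fos and Jun group lie above theirs in both lists, with these genes counted. Without them the Creb, Atf, Fos and Jun group has 3 genes in the IL-1β list and 6 in the normal-culture list. Fox then has 5 and 4 in the same order, and no interval is given for these lower counts.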

How the data were processed

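Positions were taken from deposited lists of Runx2 peaks, 1 per condition, each with 1000 numbered windows of 100 bp. Alignment was to mm9 with Bowtie2 2.2.2, as the processing notes of the submitters say. CisGenome was then used by the authors to set the anti-FLAG library of a condition against its input, and 1 nearby RefSeq transcript stands beside each window. The deposited lists hold no scores, so the numbering was taken as the order of peaks and ranks were compared as given. The IgG libraries were not used here.

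The members, gene lists and motifs were chosen with earlier results of these data known. Windows overlapping by at least 1 bp were called shared. Distances were measured between window centres and the start site of the deposited transcript, negative upstream. Place in genes came from 22380 protein-coding genes of GENCODE M1, and sequence and copies of 32 bp words from NCBIM37, the same build, inside whose chromosomes all 2000 windows lay. A RefSeq table of GRCm38.p6 gave names only and held 39 of 40 member genes of the IL-1β list and 38 of 39 of the normal-culture list. The motifs searched on both strands were Runx, AP-1, CRE (TGACGT), ETS, forkhead, TEAD (GGAATG), NFI, KLF (CCACCC), GC box, STAT, IRF, E-box, Zeb (CAGGTG), NFAT (GGAAAA), Sox, TCF (CTTTGA) and NF-kB. Words overlap: Zeb is an E-box.

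Every member gene is named with its best rank. Full values are given for the 4 best-ranked members of each family, members with 2 or more windows in a list and the 5 best-ranked unshared windows of each list. Since there was 1 library per condition no test was run, and shares carry Wilson 95% intervals, which cover counting error only. The overlap and motif code was tested on simulated data: 300 of 300 planted overlaps and 400 of 400 planted motifs among 1000 windows were recovered. Python 3.11.15, numpy 2.4.6, pandas 2.3.3 and numba 0.67.0 were used. Other overlap limits, start-site distances, gene assignments, motif spellings, list depths and the removal of multi-copy windows were tried.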

Additional observations from a re-analysis of the deposited data

How the results depend on the processing

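Of 30 alternatives over 10 results, 24 stayed within the tolerance set for them and 6 moved further. The tolerance was the Wilson interval for a share, 1.5 times for a number of genes and the 95% order-statistic interval for a median rank. Restricting each list to its first 500 windows left 16 member genes named in the IL-1β list and 15 in the normal-culture list, since fewer windows were counted. With TGTGGT as the only spelling of the Runx motif, the share of windows with it was 34.0% in the IL-1β list and 31.7% in the normal-culture list. In the central 50 bp of the window it was 27.7% and 34.1%, since less sequence was searched. The share of windows in both lists ran between 36.2 and 55.6% in the IL-1β list and between 41.5 and 62.5% in the normal-culture list, the lowest with at least 50 bp of overlap and the highest in the first 500 windows. No paired analysis was possible because each condition has 1 library and the labels give no replicate numbers. The lists limit what can be read: they hold no depth or score, end at 1000 windows and name genes by transcripts that differ between them.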

Other observations

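A further 5 genes belong to these families by their current symbols but are listed under older ones and were not among the members. Irf2bpl (listed as 6430527G18Rik) ranked 230 in the IL-1β list and 132 in the normal-culture list. Bhlhe40 (listed as Bhlhb2), a clock and hypoxia factor also known from chondrocytes, ranked 602 in the IL-1β list and 838 in the normal-culture list. Zfp866 (D330038O06Rik) ranked 239 and Zfp958 (BC003267) ranked 885 in the IL-1β list alone, and Zfp868 (AI449175) ranked 975 in the normal-culture list alone. Among the 40 factors outside the prefixes, Sox6 (379) and Cebpb (570) were named in the IL-1β list alone, and Scx (806), Nfkb1 (917) and Gli3 (951) in the normal-culture list alone.

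The median copy number of the 32 bp words of a window exceeded 1 at 1 of 47 family windows in the IL-1β list, at Foxo3a. It did so at 2 of 41 in the normal-culture list, at Satb1 and Klf2. Windows with repeats in a smaller part of their words are not counted. The words of the Klf2 window, 29.5 kb upstream of its start at rank 712, had a median of 786087 exact copies in the genome, so reads there cannot be placed by sequence alone. Over all windows 2.70% in the IL-1β list and 1.4% in the normal-culture list were of this kind.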
